A study of Mus musculus with 28 samples.

Results

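The chromatin of 9 genes that write, read or erase DNA methylation was described in mouse neural stem cells (NSCs) with and without Smchd1, a chromosomal ATPase that represses clustered and X-linked genes. The genes were chosen by name: Dnmt1, Dnmt3a, Dnmt3b, Dnmt3l, Uhrf1, Tet1, Tet2, Tet3 and Mbd1, 9 of 21887 protein-coding genes on assembled chromosomes. Every summit inside a gene or within 10 kb of it was collected from 11 deposited peak lists. The null cells were homozygous for the MommeD1 allele of Smchd1, and the controls were Smchd1 wild type. Both were male, of the strain C57BL/6 x FVB/N, and were grown as NSC cultures from E14.5 brains in medium with EGF and basic FGF. The data were H3K4me3, H3K27me3, Ctcf and Smchd1 ChIP-seq, and MBD-seq, in which methylated DNA is captured by the methyl-CpG-binding part of MBD2. Among the Ctcf libraries, null cells were set beside wild-type cells that were untransduced or carried a non-silencing shRNA, and wild-type cells with Ctcf shRNAs served as the control for peak calling.

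Each list was called on the pooled libraries of its group: 2 for each histone mark, Ctcf and Smchd1 group and 3 for each MBD group. No value below therefore has a replicate error, no test between genotypes was possible, and the read depth behind a list is unknown. The lists held 24201 null and 23449 wild-type H3K4me3 summits, 77 null and 732 wild-type H3K27me3 summits, 11920 null, 8292 untransduced and 20483 non-silencing Ctcf summits, and 407 Smchd1 summits at the calling threshold of 5e-4 or 1105 at 5e-3. The MBD lists held 126631 summits (named for null) and 156188 (named for wild type). The labels tie each MBD list to samples of the opposite genotype, so these lists are called by their own names and give no direction between genotypes. A score is the authors' −log10 probability (p or q is not stated), and it ranks summits within 1 list only. As a check of the cell type, promoter H3K4me3 was present at 8 of 10 NSC markers in null and 9 in wild type (Pax6 in wild type only, Msi1 in neither), at 5 of 7 neuron markers in each, at 1 of 4 oligodendrocyte (Mbp), 1 of 3 endothelial (Kdr) and 1 of 5 pluripotent and germ cell markers (Dazl) in each, and at 0 of 4 astrocyte and 0 of 4 microglia and blood markers in either list. Smchd1 itself had promoter H3K4me3 in both lists, with top scores of 47.5 in null and 38.3 in wild type, which gives no check of the mutation, since an H3K4me3 summit does not measure the protein.

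In mammals, methyl groups are set on cytosines of CpG dinucleotides by the de novo enzymes Dnmt3a and Dnmt3b and are copied to the new strand after replication by Dnmt1, which Uhrf1 brings to hemimethylated DNA. Tet enzymes oxidise methylcytosine as a route to its removal, and methyl-CpG-binding proteins such as Mbd1 read the mark. H3K4me3 marks active or poised promoters, H3K27me3 is the Polycomb mark of repressed ones, and Ctcf is a DNA-binding insulator protein at the base of chromatin loops.

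Promoter H3K4me3, a summit within 2 kb of an annotated transcription start, was present in both genotypes at 8 of the 9 genes and in neither at Dnmt3l. Of all protein-coding genes, 58.8% were marked in the null list and 59.1% in the wild-type list, with 57.9% in both and 40.0% in neither. No member was marked in 1 genotype only, as were 0.859% of coding genes in null only and 1.16% in wild type only. The 8 marked genes had 16 promoter summits in null and 13 in wild type. Their top scores ran between 36.1 and 62.1 in null, with a median of 49.3, and between 39.0 and 64.0 in wild type, with a median of 50.9.

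**Figure D1:**
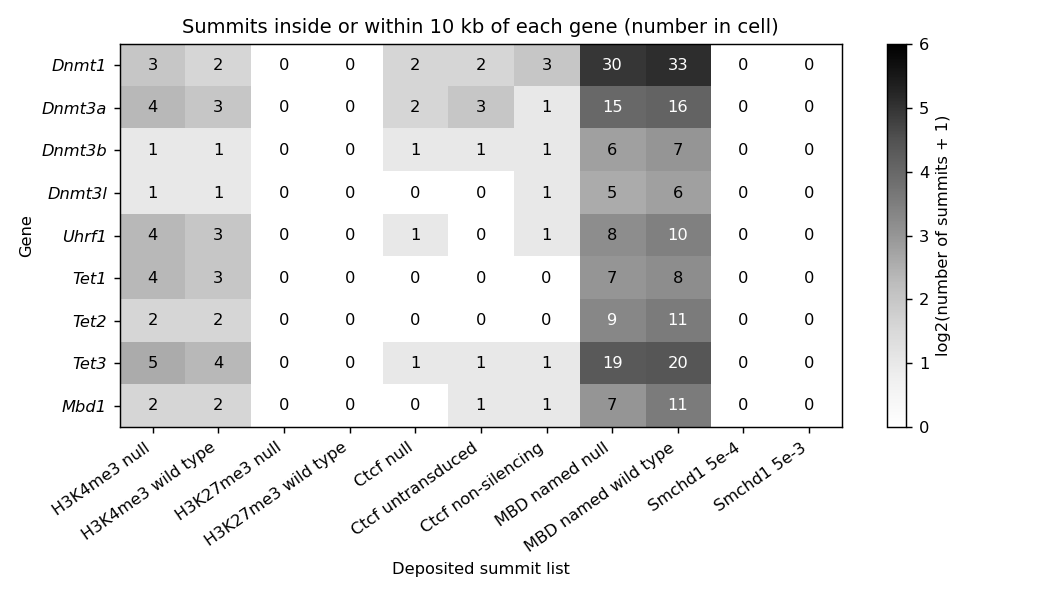
The number of summits inside or within 10 kb of each of the 9 genes (rows) in each of the 11 lists (columns), with the shade giving log2 of the number plus 1. Every gene had H3K4me3 and MBD summits, with the most MBD summits of the 9 at Dnmt1 (30 named for null, 33 named for wild type), and both Smchd1 and both H3K27me3 columns are 0 throughout.

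Both maintenance genes were marked. At Dnmt1 (chromosome 9, 20907206 to 20959888, minus strand), the maintenance methyltransferase, the top promoter summit lay at 20952458 in null cells, with a score of 46.1 that was above 80.3% of the null list, and at 20952438 in wild-type cells, with a score of 50.7 above 89.7% of its list. A further null summit at 20953070 scored 18.8. The top summits lay 20 bases apart, 165 bp from the start at 20952623 in null and 185 bp in wild type. Uhrf1 (chromosome 17, 56303337 to 56323486, plus strand), whose protein recognises hemimethylated CpG, had null summits at 56303972 (score 36.1) and 56304439 (25.5), against 1 wild-type summit at 56304012 (47.2). Its top summit was above 66.2% of the null list and 84.7% of the wild-type list. For scale, 12682 coding genes had promoter H3K4me3 in both lists. The median rank of their top promoter summit was 73.7% in null and 73.3% in wild type. Uhrf1 was thus below that median in null and above it in wild type, and Dnmt1 was above it in both.

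Of the de novo genes, Dnmt3a and Dnmt3b were marked and Dnmt3l, which encodes a cofactor without catalytic activity that is best known in germ cells, was not. Dnmt3a (chromosome 12, 3801559 to 3914443, plus strand) had promoter summits at 3806641 (51.6) and 3808095 (40.4) in null, against 3806630 (45.1) and 3808077 (41.3) in wild type. Dnmt3b (chromosome 2, 153649411 to 153687730, plus strand) had 1 in each list, at 153649812 (49.9) in null and 153649808 (51.1) in wild type. For Dnmt3l (chromosome 10, 78042287 to 78063622, plus strand), the H3K4me3 summit nearest to any of its 3 annotated starts lay 14.2 kb away in each list. Its single summit within 10 kb, at 78069500 (43.2) in null and 78069489 (34.1) in wild type, stood 132 and 121 bp from the start of its downstream neighbour Icosl, a costimulatory ligand gene.

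All 3 Tet genes, which encode the methylcytosine dioxygenases, were marked. Tet1 (chromosome 10, 62804570 to 62887469, minus strand) had 1 promoter summit in each list, 27 bp from its start in null (score 37.1) and 36 bp in wild type (39.0). Tet2 (chromosome 3, 133463677 to 133545136, minus strand) had its top summit at the same base, 133544144, in both lists, with scores of 62.1 in null and 63.8 in wild type. Tet3 (chromosome 6, 83362373 to 83457208, minus strand) had 4 null and 3 wild-type promoter summits, the top ones at 83441480 (51.6) in null and 83441481 (64.0) in wild type. Tet2 and Tet3 thus held the top ranks among the members in wild type, above 98.9% of that list each, and in null Tet2 stood above 96.1% and Tet3 above 87.4%. Tet1 stood above 67.7% of the null list and 70.9% of the wild-type list, below the medians of 73.7% and 73.3% for coding genes marked in both lists. Mbd1 (chromosome 18, 74267605 to 74282737), a reader that represses methylated promoters, has no start in the reference used here, so both gene ends were searched. Its top summit lay at 74268385 (48.6) in null and 74268391 (51.6) in wild type, 780 and 786 bp inside the lower gene end.

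The rank of the top promoter summit was lower in the null list than in the wild-type list for 7 of the 8 marked members, all but Dnmt3a, against 48.6% of the 12682 coding genes marked in both lists. The median difference, null minus wild type, was -5.97 percentage points for the members and 0.45 for those genes. The largest was at Uhrf1, at -18.44 points, and Tet3 followed at -11.49. Among the 12682 genes the middle 50% of differences ran between -9.55 and 10.5 points and 5% lay below -26.0, so that 23.2% of genes differed by more than Uhrf1 in either direction and 44.4% by more than Tet3. No member's shift therefore stood outside the spread of all promoters, and the lists have no replicate against which to set it. The members also had a higher median rank in wild type than the 12682 genes, whose median was 73.3%. Tet2 and Tet3, above 98.9% of the wild-type list each, had little room to rank higher in null. No share was computed for genes of like wild-type rank. The 7 of 8 and the median of -5.97 points therefore cannot be read as a loss shared by the members. The 27 other genes of the pathway that were marked in both lists had a median difference of -1.63 points, with 15 of 27 lower in null.

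**Figure D2:**
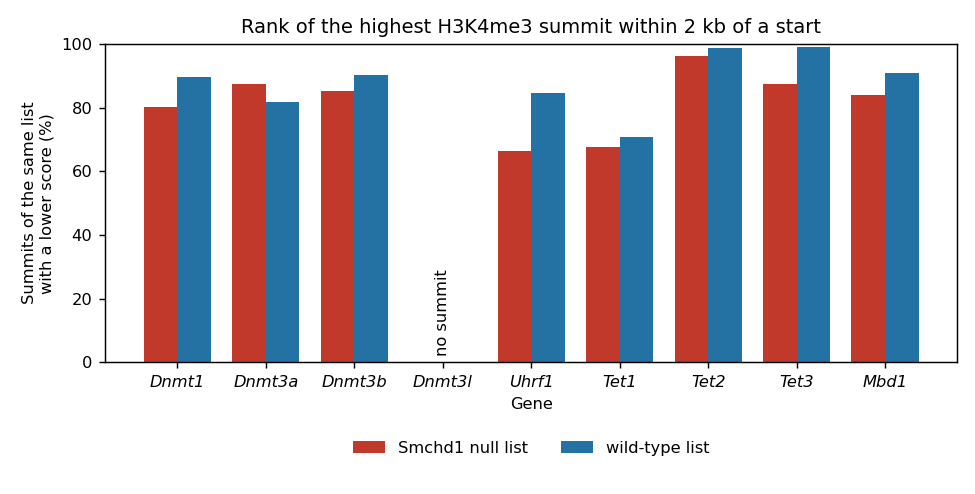
The rank of the highest H3K4me3 summit within 2 kb of a start of each gene, as the percentage of summits of the same list with a lower score (vertical axis), for the null list (left bar) and the wild-type list (right bar). Uhrf1 shows the widest gap among the members, 66.2% in null against 84.7% in wild type, Dnmt3a alone ranks higher in null, and Dnmt3l has no summit. Bars have no error because each list pools its libraries.

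Of the 26 null and 21 wild-type summits inside or within 10 kb of the members, 0 lacked a summit of the other list within 1 kb, against 7.84% of all null and 7.39% of all wild-type H3K4me3 summits, shares at which few would be missing among so few summits. Within 250 bp, 6 null and 1 wild-type summits had no counterpart. All 9 genes had at least 1 such summit in each list, as had 66.8% of coding genes in null and 67.1% in wild type, shares that were not matched for gene length. The null list had 1 summit more than the wild-type list at each of 5 genes, Dnmt1, Dnmt3a (in the 5′ flank), Uhrf1, Tet1 and Tet3, and equal numbers at the other 4. Of 14417 coding genes with a summit in both lists, 21.8% had more in null, 16.1% had more in wild type and 62.0% had equal numbers, and the null list is the longer one. These shares were not matched for gene length or for summits per gene, so 5 of 9 cannot be read as an excess. Away from the starts, Tet1 carried a cluster inside the gene with null summits at 62864462 (5.55), 62865178 (16.3) and 62865634 (21.9), against wild-type summits at 62865149 (20.1) and 62865670 (12.6). It lay 21.7 to 22.9 kb downstream of the Tet1 start in null, at an annotated end of the noncoding RNA gene Gm51805. Tet3 had a summit near the upper gene end, which on the minus strand is its 5′ end, at 83456395 (33.3) in null and 83456981 (36.6) in wild type. It lay 14.7 and 15.3 kb upstream of the annotated Tet3 start, and no start is annotated at that gene end. Dnmt3a had a weak region 14.8 to 15.3 kb upstream of its first start, with null summits at 3791712 (5.61) and 3792131 (9.08) and a wild-type summit at 3792125 (11.3). Of the remaining summits in the flanks, some lay at or in a neighbouring gene: Eif3g, a translation initiation factor gene downstream of Dnmt1 (56.8 in null, 47.7 in wild type), and Kdm4b, a histone demethylase gene downstream of Uhrf1 (51.6 in null, 30.6 in wild type). Uhrf1 had a further summit in this flank that lay in no other gene, between Uhrf1 and the lower end of Kdm4b, at 56325489 (16.3) in null and 56325490 (14.2) in wild type.

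**Figure D3:**
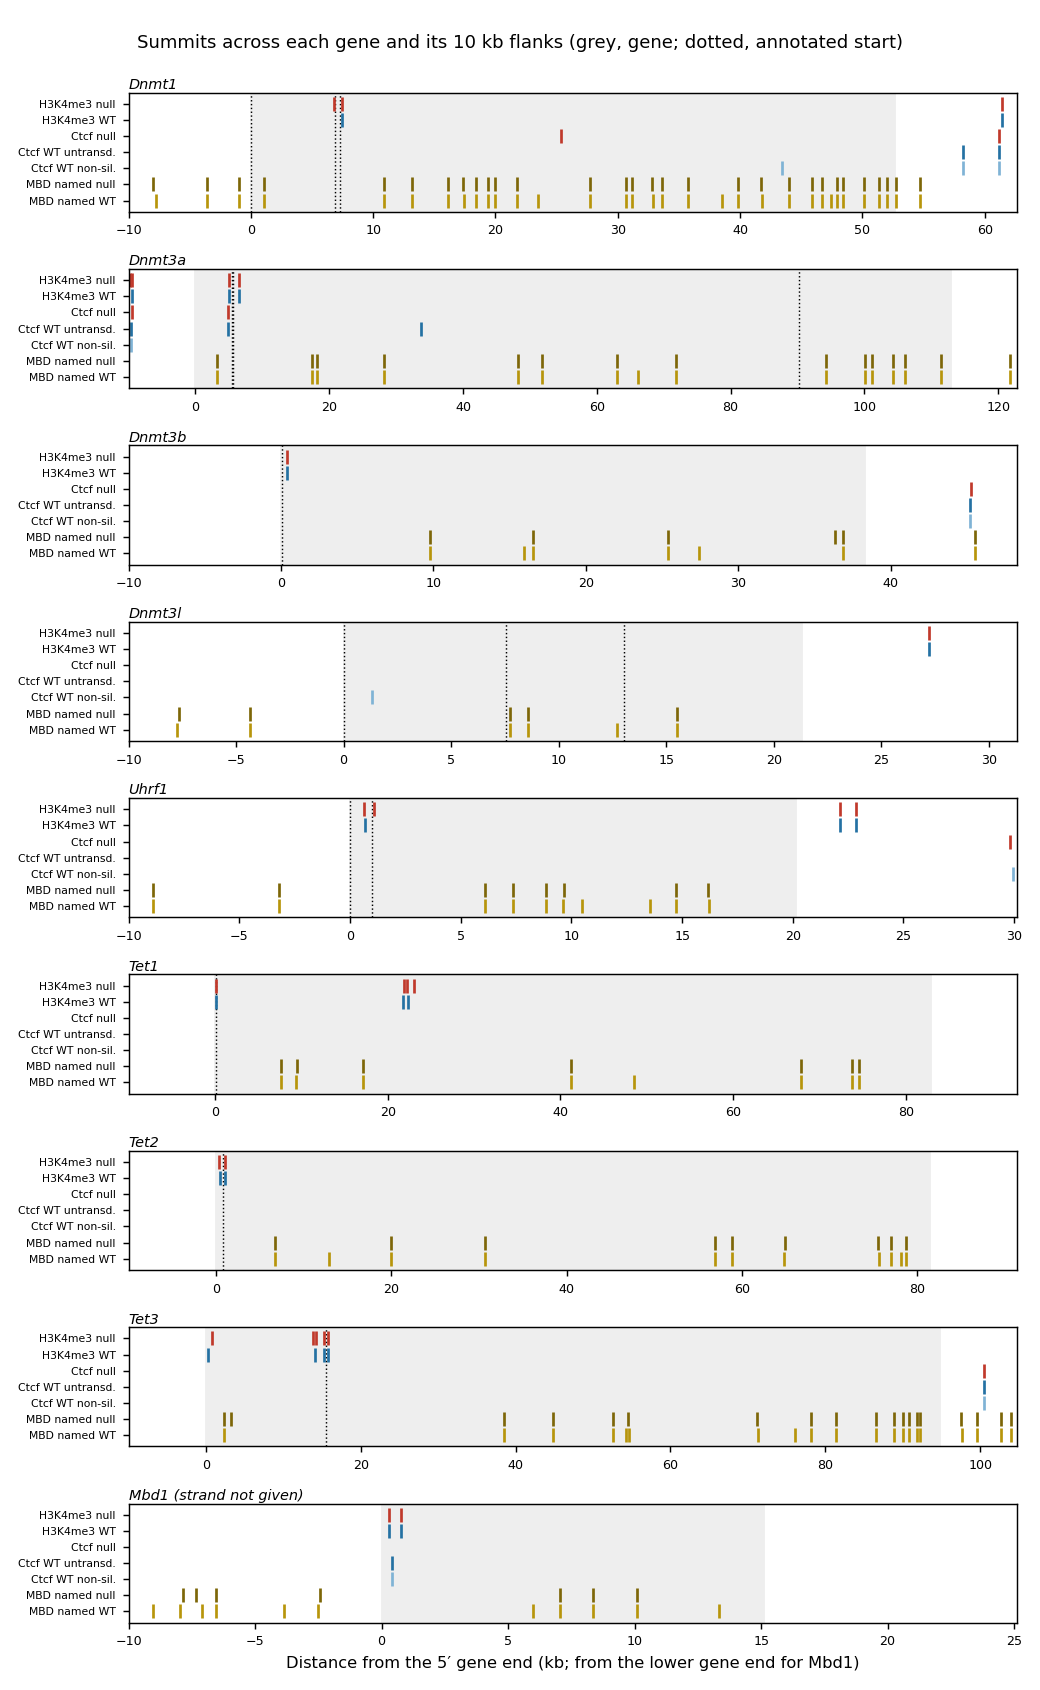
Maps of the 9 genes, 1 panel each, with distance in kb from the 5′ gene end (from the lower gene end for Mbd1) on the horizontal axis and a row for each H3K4me3, Ctcf and MBD list. A tick is 1 summit, grey is the gene and dotted lines are annotated starts. H3K4me3 ticks gather at the dotted lines in both genotypes except at Dnmt3l, the first Dnmt1 start and the third Dnmt3a start. Mbd1 has no annotated start and so no dotted line. Further H3K4me3 ticks lie away from the starts, as inside Tet1 and near the 5′ end of Tet3. MBD ticks fill the gene bodies away from H3K4me3.

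The 8 genes with a RefSeq start (GRCm38.p6, the assembly of mm10) have 15 annotated starts, of which 10 had H3K4me3 within 2 kb in both lists, 5 in neither and 0 in 1 list. Their 300-base windows, 250 before to 50 after the start, differed in CpG content, given as observed over expected from the counts of C and G. The 10 marked starts had ratios of 0.472 to 1.167 (median 0.802), and the 5 unmarked ones 0.101 to 0.468 (median 0.219), so the ranges did not overlap, although the edge was narrow: Dnmt3a start 3 (0.468) was unmarked and Uhrf1 start 1 (0.472) was marked. Starts of the same gene are not separate observations. Starts 2 and 3 of Dnmt1, 1 and 2 of Dnmt3a and 1 and 2 of Uhrf1 each counted the same summits. The wild-type summit counted for Uhrf1 start 1 lay 0.675 kb from it but 0.301 kb from start 2, whose ratio was 0.959. Unmarked were the first Dnmt1 start, all 3 Dnmt3l starts and the third Dnmt3a start. The first 250 bases of 6 windows are printed because they show this contrast, in lower case with every CpG in capitals, in the 5′ to 3′ direction of the gene and from the RefSeq promoter table (GRCm38.p6). The first 3 belong to marked starts, namely Dnmt3a start 1 (chr12:3806730-3806979, plus strand, 38 CpGs), Dnmt3b (chr2:153649199-153649448, plus strand, 21 CpGs) and Tet2 (chr3:133544391-133544640, minus strand, 51 CpGs). The others belong to unmarked starts, namely Dnmt3a start 3 (chr12:3891494-3891743, plus strand, 15 CpGs), Dnmt1 start 1 (chr9:20959889-20960138, minus strand, 2 CpGs) and Dnmt3l start 2 (chr10:78049592-78049841, plus strand, 4 CpGs).
Dnmt3a start 1: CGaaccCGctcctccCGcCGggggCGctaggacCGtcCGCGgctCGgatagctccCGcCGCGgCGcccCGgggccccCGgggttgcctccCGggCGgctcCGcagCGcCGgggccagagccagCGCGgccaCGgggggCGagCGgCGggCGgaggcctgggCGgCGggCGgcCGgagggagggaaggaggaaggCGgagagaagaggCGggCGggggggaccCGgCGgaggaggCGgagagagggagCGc
Dnmt3b start 1: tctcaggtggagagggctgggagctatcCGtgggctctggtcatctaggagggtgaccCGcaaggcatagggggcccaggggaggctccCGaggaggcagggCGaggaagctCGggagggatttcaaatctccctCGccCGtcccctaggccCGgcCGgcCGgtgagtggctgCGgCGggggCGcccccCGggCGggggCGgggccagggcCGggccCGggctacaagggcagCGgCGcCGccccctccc
Tet2 start 1: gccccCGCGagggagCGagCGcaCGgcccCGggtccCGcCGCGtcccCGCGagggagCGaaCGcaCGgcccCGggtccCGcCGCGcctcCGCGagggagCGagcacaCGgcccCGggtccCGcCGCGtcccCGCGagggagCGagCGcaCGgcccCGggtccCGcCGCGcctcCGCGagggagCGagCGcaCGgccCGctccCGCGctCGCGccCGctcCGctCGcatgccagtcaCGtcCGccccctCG
Dnmt3a start 3: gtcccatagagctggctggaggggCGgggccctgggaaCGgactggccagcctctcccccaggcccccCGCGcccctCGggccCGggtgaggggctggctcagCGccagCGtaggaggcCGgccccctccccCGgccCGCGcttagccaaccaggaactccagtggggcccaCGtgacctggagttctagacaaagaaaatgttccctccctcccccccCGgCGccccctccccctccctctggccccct
Dnmt1 start 1: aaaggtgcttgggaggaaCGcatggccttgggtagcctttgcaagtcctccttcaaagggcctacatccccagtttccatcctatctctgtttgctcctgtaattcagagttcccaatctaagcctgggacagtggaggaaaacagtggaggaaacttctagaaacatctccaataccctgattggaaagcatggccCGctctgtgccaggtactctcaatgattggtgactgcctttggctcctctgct
Dnmt3l start 2: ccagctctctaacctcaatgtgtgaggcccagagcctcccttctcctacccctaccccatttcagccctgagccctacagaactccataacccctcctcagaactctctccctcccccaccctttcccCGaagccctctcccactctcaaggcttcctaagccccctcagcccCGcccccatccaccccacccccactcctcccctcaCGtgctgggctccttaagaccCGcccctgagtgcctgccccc

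The Tet2 sequence held 51 CpGs in 250 bases at 83.6% GC, with a ratio of 1.187, and the Dnmt1 start 1 sequence held 2 at 50.4% GC, with a ratio of 0.126. Dnmt3a start 3 lies 84.8 kb downstream of start 1, inside the gene, and its sequence was rich in G and C (73.6%) but held 15 CpGs, a ratio of 0.459, against 38 and 0.938 at start 1 of the same gene. As background, mouse Dnmt3a gives a shorter isoform, Dnmt3a2, from an internal start, and the table does not say which transcript a start belongs to. The H3K4me3 summit nearest to Dnmt3a start 3 lay 68.1 kb away in null and 68.5 kb away in wild type. Among promoters at large, H3K4me3 also went with CpG content, without a sharp limit. Of 10144 starts of coding genes with a ratio of at least 0.6, 94.0% had H3K4me3 in null and 94.2% in wild type, and of 8364 starts with a ratio under 0.4, 13.2% had it in null and 13.4% in wild type. Between these limits, 64.0% of 2755 starts had it in null and 65.1% in wild type, and in this class fell the unmarked Dnmt3a start 3 and the marked Uhrf1 start 1, Dnmt1 start 2 and Tet3 start. The starts of Dnmt3l, with ratios of 0.272, 0.219 and 0.114, and the first of Dnmt1, with 0.101, fell in the low class.

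**Figure D4:**
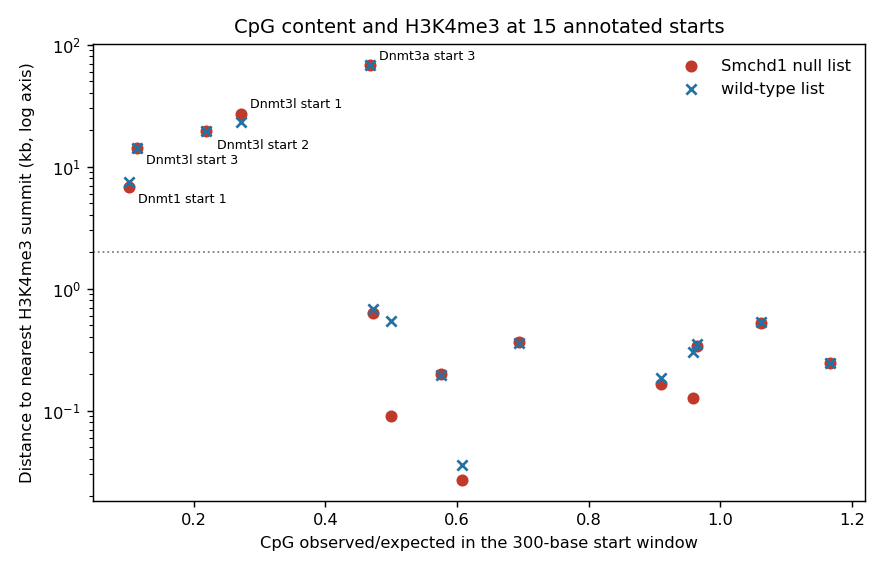
Distance to the nearest H3K4me3 summit in kb (vertical axis, logarithmic) against the CpG observed/expected ratio of the 300-base window (horizontal axis) for the 15 annotated starts, with circles for the null list and crosses for the wild-type list. The dotted line is at 2 kb: 10 starts lie below it in both lists, and the 5 named starts above it are those with the lowest ratios (0.101 to 0.468).

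MBD summits, which stand for methylated DNA, lay within 2 kb of 0 of the 10 marked starts in either list, and of 2 of the 5 unmarked starts in the list named for null and 3 in the list named for wild type. Among all starts of coding genes, those marked in wild type had an MBD summit within 2 kb in 14.8% (named for null) and 18.0% (named for wild type) of 12472 cases, and those unmarked in 23.0% and 26.5% of 8791, so that counts this small are no result about the members. The 2 kb limit also matters: the marked Dnmt3a start 1 had an MBD summit 2.22 kb (named for null) and 2.20 kb (named for wild type) away, nearer than those of the unmarked Dnmt3l start 1, at 4.35 and 4.37 kb. Several starts belong to 1 gene and share their surroundings. The nearest MBD summits stood 0.180 kb (score 20.1, named for null) and 0.171 kb (28.0, named for wild type) from Dnmt3l start 2, and 0.992 kb (19.2) and 0.995 kb (20.9) from Dnmt1 start 1. Dnmt3l start 3 had 1 within 0.312 kb in the list named for wild type, and none nearer than 2.45 kb in the other. Dnmt3a start 3 had neither mark within 2 kb: its nearest MBD summits lay 4.05 kb away in the list named for null and 4.04 kb away in the list named for wild type.

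Inside the genes MBD summits were frequent. All 9 members had them in both lists, with 87 in the list named for null and 101 in the list named for wild type, where 64.5% and 67.6% of coding genes had at least 1 inside. With 10 kb flanks added these were 106 and 122 summits, at 9 of 9 members in each, against 79.1% and 82.1% of coding genes. None of these shares was matched for gene length, so 9 of 9 cannot be read as an excess over them. The median density was 0.141 summits per kb of gene (named for null) and 0.169 (named for wild type), against 0.0700 and 0.0876 for the 13962 coding genes of at least 10 kb, a length that all members reach. Dnmt1 was the densest of the 9, with 25 summits in 52.7 kb or 0.474 per kb in the list named for null, above 98.5% of those genes, and 28 or 0.532 per kb in the list named for wild type, above 98.6%. Uhrf1 followed, with 6 and 8 summits in 20.2 kb (0.298 and 0.397 per kb), above 93.0% and 95.6% of those genes. Tet1 was the sparsest, with 7 and 8 summits in 82.9 kb (0.0844 and 0.0965 per kb), near the middle of the distribution at 55.8% and 53.2%. The density of MBD summits depends on how many CpGs a gene holds as well as on their methylation, and CpG content over whole genes was not analysed here.

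**Figure D5:**
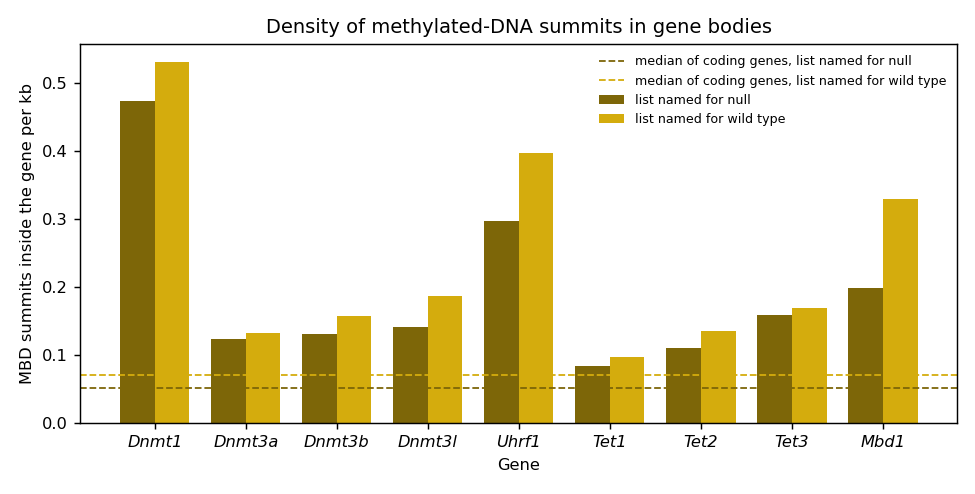
MBD summits per kb inside each gene (vertical axis) in the list named for null (left bar) and the list named for wild type (right bar), with dashed lines at the medians of all 21887 coding genes (0.0519 and 0.0708). All 9 genes lie above the median of the same list, with Dnmt1 at 0.474 and 0.532 and Tet1 at 0.0844 and 0.0965. The lines include short genes. For coding genes of at least 10 kb, a length that all members reach, the medians are higher, at 0.0700 and 0.0876, and Tet1 is near the middle of those genes. Bars have no error because each list pools its libraries.

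The MBD summits inside the members were largely the same in both lists. All 87 of the list named for null had a summit of the other list within 1 kb (1.82% of that list lacked one genome-wide), and 11 of the 101 of the list named for wild type lacked one, 10.9% against 17.5% of that whole list. With equal numbers of highest-scoring summits taken from each list, 87 remained in the list named for null and 85 in the list named for wild type. The top scores were 80.5 and 90.2 at Tet3, 71.8 and 85.9 at Tet1, 64.9 and 93.9 at Dnmt3a, and 66.6 and 82.9 at Mbd1, given for the list named for null and then for the one named for wild type. The Tet1 pair came from different sites. In the same order of lists, the site at 62879811 and 62879773 scored 71.8 and 70.4, and the site at 62812883 scored 60.3 and 85.9. None of the 87 or 101 MBD summits inside a member lay within 1 kb of a wild-type H3K4me3 summit, and genome-wide 0.86% (named for null) and 0.915% (named for wild type) of those inside coding genes did, so this separation was general. Along the 8 genes with a strand, 18, 26 and 40 summits of the list named for null fell in the first, middle and last part of equal length, or 21.4%, 31.0% and 47.6%, against 23.7%, 31.2% and 45.2% for all coding genes with a strand. The list named for wild type had 18, 33 and 45, or 18.8%, 34.4% and 46.9%, against 24.3%, 31.5% and 44.3%. Gene by gene, Dnmt1 and Tet3 increased through all 3 parts in both lists (5, 9 and 11 at Dnmt1 and 2, 4 and 9 at Tet3 in the list named for null), and these 2 genes held 20 of the 40 summits of the last part in that list, while Tet1 had 3, 1 and 3 and Dnmt3l had 0, 2 and 1.

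Ctcf summits lay inside or within 10 kb of 5 of the 9 genes in null cells, 5 in untransduced and 7 in non-silencing wild-type cells, where 37.2%, 29.5% and 50.6% of all coding genes had one. A longer gene gives a wider window, and every member is at least 10 kb long, as are 13962 of the 21887 coding genes. No share matched for gene length was computed, so these counts cannot be read as an excess. Summits of different lists within 1 kb of each other were taken as 1 site, which gave 12 sites, 6 inside the genes and 6 in their flanks. In all 3 lists were 4 sites, every one of them in a flank, at Dnmt1, Dnmt3a, Dnmt3b and Tet3. Counted per gene, these 4 of the 9 genes had Ctcf in all 3 lists, as had 22.6% of coding genes. The 6 sites inside genes were each in 1 or 2 lists. How sites inside genes and in flanks divide over all coding genes was not computed, so this division is no result about the members. The difference between the 2 wild-type lists is the only measure of spread: of 11 sites in either, 5 were in 1 of them only, and over the whole lists 14.4% of untransduced summits had no non-silencing summit within 1 kb and 64.5% of non-silencing summits had no untransduced one. Taken per gene, no member had Ctcf in the null list and in neither wild-type list, as had 3.03% of coding genes. Tet1 and Tet2 had no Ctcf summit in any list, as did 44.8% of coding genes, the nearest to Tet1 lying 92.8 kb away in null, 92.8 kb in untransduced and 78.6 kb in non-silencing cells, and the nearest to Tet2 149 kb, 154 kb and 149 kb.

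Of the 4 sites in all 3 lists, those at Dnmt1, Dnmt3a and Dnmt3b lay in no gene, and the one at Tet3 lay inside a neighbouring gene. Downstream of Dnmt1, at 20898686 and 96 bp from the start of Eif3g, Ctcf scored 16.2 in null, 14.8 in untransduced and 21.0 in non-silencing cells. Upstream of Dnmt3a, at 3792037 in null, beside the weak H3K4me3 region described above, it scored 13.6 in null, 5.50 in untransduced and 14.3 in non-silencing cells. Downstream of Dnmt3b, at 153694657 in null, it scored 9.12 in null, 9.54 in untransduced and 10.9 in non-silencing cells. Downstream of Tet3, at 83356735 inside the neighbouring gene Bola3, it scored 10.3 in null, 8.99 in untransduced and 14.3 in non-silencing cells.

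Mbd1 differed in that a Ctcf summit inside it was in both wild-type lists and not in the null list, as for 5.33% of coding genes. It lay at 74268038 (score 9.05, above 52.5% of the list) in untransduced and 74268019 (12.9, above 69.8%) in non-silencing cells, 433 and 414 bp inside the lower gene end and between the H3K4me3 summits that both genotypes had there. The nearest null Ctcf summit was 84.4 kb from that gene end. Of the 7102 untransduced summits shared with the non-silencing list, 33.0% had no null summit within 1 kb, and 25.9% of those scoring at least as high as the Mbd1 summit, so an absence of this kind was common in these lists. Dnmt1 had a similar site downstream of the gene at 20901644 (4.91) in untransduced and 20901643 (9.09) in non-silencing cells, and a null summit at 20934563 (6.70) inside the gene with no wild-type one, as had 21.2% of all null summits.

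Dnmt3a had a Ctcf summit in its promoter, at 3806428 (7.89) in null and 3806419 (9.21) in untransduced cells, 0.552 and 0.561 kb upstream of the first start, but none there in non-silencing cells. Uhrf1 had a site inside Kdm4b, at 56333167 (5.56) in null and 56333281 (8.39) in non-silencing cells, and none in untransduced cells. The remaining sites were in 1 wild-type list: 20916442 in Dnmt1 (7.23, non-silencing), 3835209 in Dnmt3a (12.0, untransduced) and 78043586 in Dnmt3l (9.76, non-silencing), the last 24 bp from the start of Aire, a regulator of thymic self-antigen expression that overlaps Dnmt3l. Since these sites divide the wild-type lists from each other, they give no difference between genotypes.

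Smchd1 summits were absent from all 9 genes and their 10 kb flanks, in the 5e-4 list (1.11% of coding genes had one) and in the 5e-3 list (3.07%). In the 5e-3 list the nearest lay 153 kb from Uhrf1, 499 kb from Tet1, 509 kb from Dnmt3b and 522 kb from Dnmt1, and the other 5 genes were between 566 kb (Dnmt3a) and 4247 kb (Tet2) away. H3K27me3 summits were absent too, with 0.32% of coding genes having one in null and 1.24% in wild type, and the nearest lay 245 kb from Tet3 in null and 242 kb in wild type. With backgrounds this low, 0 of 9 is no result about these genes.

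Across the 11 lists, Dnmt1, Dnmt3a, Dnmt3b and Tet3 shared 1 pattern, with summits inside or within 10 kb in the H3K4me3, Ctcf and MBD lists and none in the others, as did 3957 coding genes (18.1%), among them Mbd4, Zbtb38, Cxxc5 and Kdm2b of the other pathway genes. Tet1 and Tet2 shared the pattern without Ctcf with 3580 coding genes (16.4%), including Mbd2, Mbd3, Uhrf2 and Tdg. Dnmt3l was matched by 1756 coding genes (8.02%), Uhrf1 by 1740 (7.95%) and Mbd1 by 860 (3.93%), the last including Usp7.

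Of 30 other genes of DNA methylation, 27 had promoter H3K4me3 in both genotypes (57.9% of all coding genes), 0 in 1 genotype only (0.859% in null only, 1.16% in wild type only) and 3 in neither (40.0%). Among the 3 were Dppa3 (also known as Stella, which protects methylation in the early embryo) and the germ-line gene Tdrd1, whose nearest summits lay 24.2 and 3.79 kb away in null and 24.2 and 4.14 kb away in wild type. Ctcf was in both wild-type lists and not in the null list at Usp7 (7.90 untransduced, 9.23 non-silencing), which encodes a deubiquitinase that binds Dnmt1 and Uhrf1, and in the null list alone at Zbtb4 (7.89), a reader of methylated DNA. Of all coding genes, 5.33% had the Ctcf pattern of Usp7 and 3.03% that of Zbtb4. A Smchd1 summit lay at 1 of the 30, Gadd45b (4.76), a stress-response gene linked to demethylation. Such a summit lay at 1.11% of coding genes in the 5e-4 list and at 3.07% in the 5e-3 list. At these shares, 1 gene of 30 is no result about the pathway. The median MBD density of these 30 genes was 0.0790 per kb (named for null) and 0.0919 (named for wild type), against 0.141 and 0.169 for the 9 members.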

How the data were processed

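ChIP-seq and MBD-seq libraries were made from null and wild-type NSC cultures. The authors deposited 11 lists of 1 bp summits in mm10, made with MACS2 (version 2) after CASAVA 1.4 (the submitters' processing notes name both). No source used here names the aligner. The deposited score of a summit is MACS2's −log10 probability, p or q. Per the labels, Smchd1 ChIP of wild-type cells had that of null cells as its control, Ctcf had wild-type cells with Ctcf shRNAs, and histone marks and MBD had whole cell extract (1 library per genotype). Weak or failed controls, and unequal depth, change which summits pass.

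Genes came from RefSeq (GRCm38.p6). Starts and promoter sequences were found for 8 of the 9 members and for 17492 of 21887 coding genes; both gene ends stood in for a missing start. Python 3.11.15, numpy 2.4.6 and pandas 2.3.3 were used. A summit counted at a gene inside it or within 10 kb, at a promoter within 2 kb, and as shared within 1 kb. Counting was checked on simulated positions. The members and lists were chosen with earlier results of these data known. Named were all members, and other pathway genes with promoter H3K4me3 in 1 genotype or neither, with Ctcf in null alone or in both wild-type lists alone, or sharing a member's pattern; Gadd45b was named after its value was seen, and some genes are not reported here. Alternatives were other distances, flanks and scores, lists of equal length and merged summits.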

Additional observations from a re-analysis of the deposited data

How the results depend on the processing

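Of 50 alternatives to 15 results, 39 stayed within 1.5 times the reported count. The count of 8 genes with promoter H3K4me3 held in both genotypes at 1 kb, 5 kb and higher scores, and the 0 genes with Smchd1 or H3K27me3 held to 100 kb. MBD summits inside the genes ran between 70 and 87 (named for null) and between 80 and 100 (named for wild type). With counterparts sought within 250 bp, 6 null and 1 wild-type H3K4me3 summits lacked one, against 0 and 0. A flank of 2 kb left Ctcf at 2 genes in null, 2 in untransduced and 3 in non-silencing cells, with 2, 3 and 3 summits, since 5 of 7, 5 of 8 and 6 of 9 summits lay in the flanks. A flank of 20 kb gave 13 null and 16 non-silencing Ctcf summits. With lists of equal length, 4 genes had Ctcf in the non-silencing list, against 7, 4 in the null list, against 5, and 5 in the untransduced list, as before. The non-silencing list then no longer had the highest count. No paired analysis was possible because each list pools its libraries, which also prevented leaving out a replicate. Depth is unknown, so an absent summit does not show absent binding or methylation.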
